A study of Mus musculus with 384 samples.

Results

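The wells described here are single sorted meningeal cells whose RNA was rich in both Vwf and Plvap, a pair of genes of blood vessel endothelium. They were picked from 384 wells by 4 measured genes. A well needed at least 300000 counts, at least 1000 CPM of Vwf (a gene's count scaled to a total of 1000000 counts per well) and of Plvap, and under 100 CPM of Lyve1 and of Cd74. Of the 384 wells, 269 were deep enough, and 42 aged and 79 young wells, 45% of the 269, met every limit. These wells are called members below. Because Vwf, Plvap, Lyve1 and Cd74 chose them, their levels are given as a description.

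Cells came from the brain meninges of male mice in 2 groups, 20 to 24 months old (aged, C57BL/6NCRL) and 2 to 3 months old (young, C57BL/6J). Age and substrain cannot be told apart. Each group was 1 pool of 5 perfused mice, whose meninges were digested with collagenase and sorted one cell per well as living CD45- CD31+ PDPN+ Lyve1+ cells onto 2 plates, S1 and S2. The labels call every well a lymphatic endothelial cell. With 1 pool per age there is no replicate of either group, so wells and plates are not treated as replicates and no test is made.

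Von Willebrand factor, the product of Vwf, is a clotting protein that endothelial cells store in Weibel-Palade bodies and release when a vessel is injured. Plvap encodes the protein of the diaphragms that span fenestrae and caveolae, and mature endothelium of the blood-brain barrier lacks it, whereas vessels of the dura have no such barrier. Veins are marked by Nr2f2, a transcription factor of venous identity, and often by Emcn, a surface sialomucin, and Aplnr, the apelin receptor. Lymphatic endothelium is defined by the transcription factor Prox1 and by podoplanin, the product of Pdpn.

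Plate totals ran from 77696614 to 114409656 counts over 96 wells and 40324 genes. Members had a median of 1172737 counts (398600 to 4034452) and 5520 detected genes (3299 to 7025). The aged plates S1 and S2 gave 26 and 16 members and the young plates 52 and 27. Wherever 4 values are given for the plates, the aged pair comes first and S1 precedes S2. No 2 wells held identical counts. Counts are of PCR-amplified reads, for which no molecular identifiers are described, so the 95% intervals below cover counting error only.

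Vwf ranged in members from 1047 to 17354 CPM with a median of 3764 CPM, and Plvap from 1043 to 13424 CPM with a median of 3609 CPM. The limits cut through continuous values. The lowest Vwf of a member was 1047 CPM, while the nearest well outside had 875 CPM. For Plvap the nearest well outside had 858 CPM. Lyve1 reached 99.6 CPM in a member and was 109.6 CPM in the nearest well left out for it, and Cd74 reached 77.9 CPM in a member against 163.2 CPM outside. Vwf (chromosome 6, 125546774 to 125686679, plus strand) and Plvap (chromosome 8, 71497765 to 71511752, minus strand) are protein-coding genes in the GENCODE vM21 annotation of GRCm38.

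**Figure D1:**
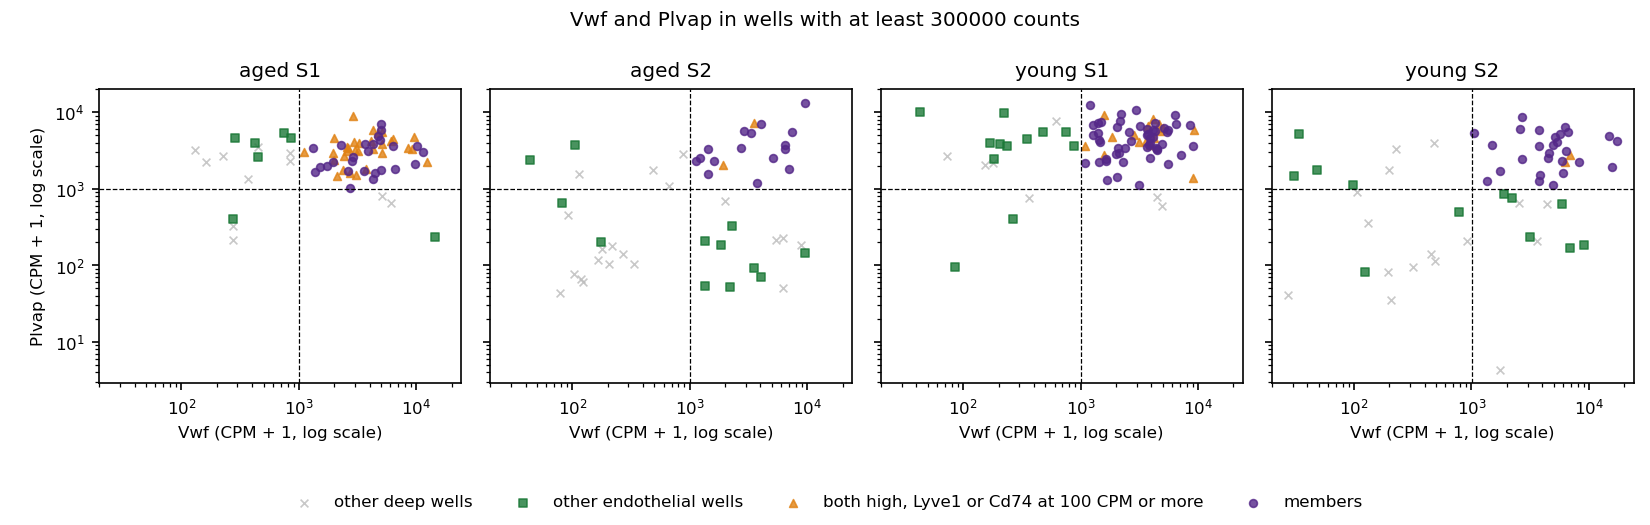
Vwf against Plvap in each of the 269 wells with at least 300000 counts, 1 panel per plate, both in CPM plus 1 on log axes. Dashed lines mark 1000 CPM, purple circles the members, orange triangles the 51 wells that met both limits but had Lyve1 or Cd74 at 100 CPM or more, green squares the 43 other endothelial wells, and grey crosses the remaining deep wells.

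Vwf and Plvap also appeared in wells with few counts. Of the wells under 300000 counts (21, 46, 9 and 39 by plate, with a median of 69160 counts), 93 had at least 1000 CPM of both genes. Their absolute counts were low, from 15 to 2351 for Vwf and from 14 to 1510 for Plvap. Members had a median of 4222 Vwf counts and 4423 Plvap counts. Every shallow well of the same plate was exceeded in both genes by 17 of 26, 15 of 16, 48 of 52 and 23 of 27 members. Whether reads pass between wells of a plate was not tested. Other genes reached high counts in shallow wells too, up to 2203 for Emcn, 1778 for Lrg1, 3461 for Mgp and 4160 for Cytl1. All shallow wells of the series were exceeded by 54 members in Emcn, 86 in Lrg1 and 49 in Cytl1. Below, a gene is counted as carried by a well at 100 CPM or more, a limit that such shallow wells can also pass.

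The label venous-like held for only some of its markers. Emcn (chromosome 3, 137341067 to 137432185) was carried by 110 members (90.9%), from 14.6 CPM in the lowest well to 7462 CPM in the highest, with a median of 1590 CPM. Nr2f2 (chromosome 7, 70351944 to 70366735) was carried by 61 members. It split the wells, with 24 at 1000 CPM or more, 37 between 100 and 1000 CPM, 45 between 10 and 100 CPM and 15 under 10 CPM. Aplnr (chromosome 2, 85136225 to 85139923) was carried by 1 member, at 515 CPM, and 120 members had under 10 CPM. The Vwf-high Plvap-high wells thus shared Emcn, were divided over Nr2f2 and nearly all had under 100 CPM of Aplnr, and they are named here by their rule. Nr2f2 overlaps the transcript B130024G19Rik on the other strand, and the strand setting of the counting is not given in the sources used here.

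**Figure D2:**
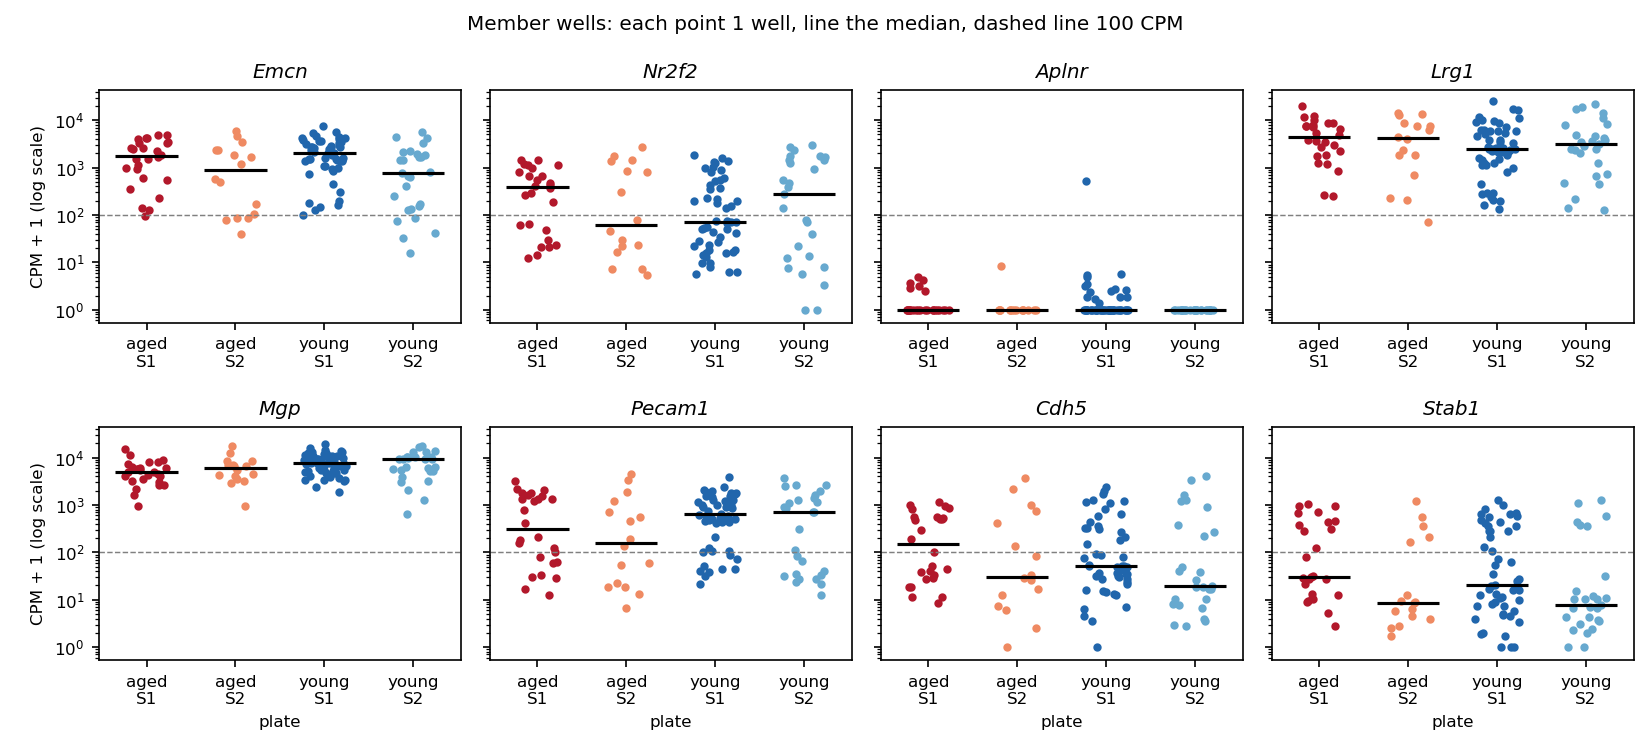
CPM plus 1 on a log axis of 8 genes in the members, by plate; each point is 1 well, the black line the plate's median and the dashed line 100 CPM. Mgp and Lrg1 lie above the dashed line in nearly all wells, Nr2f2, Pecam1, Cdh5 and Stab1 spread to both sides of it on every plate, and Aplnr exceeds it in 1 well.

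The lymphatic label of the wells was not borne out by RNA. Prox1 was carried by 0 members and pooled to 0.0834 CPM, and Pdpn was carried by 0 and pooled to 0.548 CPM. Lyve1, which the sort also used as a protein, pooled to 11.9 CPM, a level the rule held down. Ccl21a, Reln and Tbx1 were likewise carried by no member. Of the 12 lymphatic genes listed, only Nrp2 (57 wells), Fgl2 (23) and Flt4 (11) were carried by more than 5% of members, and Nrp2 is shared with veins. Ptprc, which encodes CD45, was carried by 1 member.

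Every member carried general endothelial genes, from 2 to 18 of the 24 listed, but only 10 of the 24 were carried by at least 50% of members. All 24 genes of this pan-endothelial list were carried by at least 1 member, and a member carried a median of 12 of them. Egfl7, a secreted endothelial factor, was carried by 96.7% of members, Ptprb, the vascular endothelial phosphatase, by 85.1%, Clec14a by 100 wells and Eng, a co-receptor of TGF-beta and BMP ligands, by 96. Pecam1, the gene of the CD31 protein used in the sort, was carried by 85 wells, with a median of 552 CPM over all members. Cdh5, encoding VE-cadherin, was carried by only 47 wells. Both were carried by 31 wells and neither by 20.

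Among markers of venous endothelium beyond the 5 of the label, Lrg1, a secreted glycoprotein of venules, was carried by 120 members (68.8 to 25943 CPM, median 3170 CPM). Il6st, the shared receptor chain of the interleukin-6 family, was carried by 67 wells and Nrp2, a receptor for semaphorins and VEGF-C, by 57. Nr2f2 and Nrp2 were carried together by 34 wells, Nr2f2 alone by 27, Nrp2 alone by 23 and neither by 37. The adhesion molecules of inflamed or postcapillary venules were rarer: Vcam1 was carried by 34 members, Selp by 28, Ackr1 by 5, Icam1 by 4 and Sele by 2. Selp and Vcam1 were carried together by 8 wells. A member carried a median of 6 of the 20 venous genes, with a range of 2 to 11. In the 2 sets of endothelial wells compared with members below, the medians were close. They were 5 (0 to 10) in the 43 wells and 4 (1 to 8) in the 9 wells.

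Arterial genes were sparse. A member carried a median of 1 of 20, and Gja5, Hey1, Hey2, Dll4, Sema3g, Unc5b, Gkn3 and Alpl were carried by none. For a gene carried by 0 members the exact 95% interval of the share reaches up to 3.003%. Nos3, the endothelial nitric oxide synthase, which veins also express, was carried by 30 wells and Fbln5 by 19. Genes of barrier capillaries were split. Mfsd2a, the lipid transporter that marks the barrier, was carried by 0 wells, as were Slco1c1, Tfrc, Slc7a5, Lef1 and Slc22a8, while Cldn5 and Slc2a1, the barrier's claudin and glucose transporter, were carried by 6 each. Abcg2, an efflux pump also found in veins, was carried by 64, and Bsg by 88. From the peripheral capillary list, Fabp4, a fatty acid binding protein, was carried by 98 members, Aqp1 by 47 and Kdr, the main VEGF receptor, by 46, whereas Car4, Apln and Aqp7 were carried by none.

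**Figure D3:**
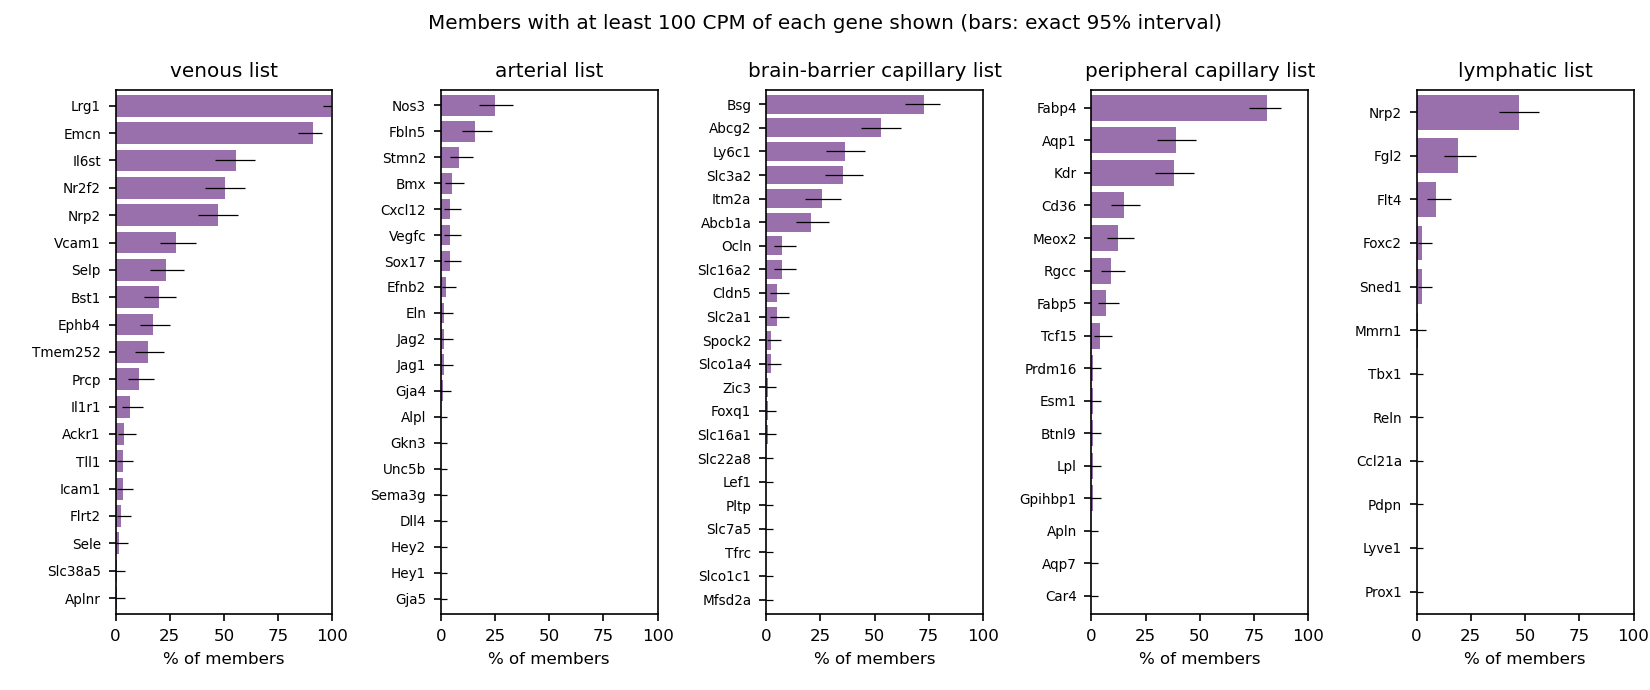
Share of members with at least 100 CPM of each gene shown of 5 lists, as bars with exact 95% intervals. Lrg1 and Emcn exceed 90% in the venous list, Fabp4 reaches 81% in the peripheral capillary list, and no arterial gene exceeds 25%.

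Only 17 genes were carried by all members, Vwf and Plvap among them by the rule's own choice. A further limit, at least 90% of members, was met by 67 genes, these 17 included, whereas 947 were carried by 20% to 80%. Mgp, an inhibitor of calcification and of BMP signalling, was among the 17, at 658 to 18942 CPM with a median of 6310 CPM, as were B2m, Ly6e and Tmsb4x. Tm4sf1 and Apoe were carried by 120 wells, Id3, a target of BMP signalling, by 98.3%, Ctla2a by 95.9% and the small secreted protein gene Cytl1 by 95%. Id1, another BMP target, was carried by 67 wells.

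Genes around Vwf and Plvap themselves varied. In the Weibel-Palade list of 24 genes, Tspan7 was carried by 82 members, Cd63, a membrane protein of these granules, by 41, the fusion protein gene Vamp8 by 40, Selp by 28 and Angpt2 by 18, while Rab3b, Mlph, Sytl4 and Unc13d were carried by none. Among caveolar genes, Cavin2 was carried by 94, Cavin1 by 91 and Cav1 by 63. Of the haemostasis list, Ptgs1, cyclooxygenase-1, was carried by 64 members, Thbd, thrombomodulin, by 56 and Procr, the protein C receptor, by 23; Proc and Adamts13 were carried by none. The flow-induced transcription factor Klf2 was carried by 82 wells and Klf4 by 37.

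In the VEGF and TIE list, the receptor gene Flt1 was carried by 90 members, Nrp1 by 61, Tek by 57 and Tie1 by 45, while Vegfa, Pgf and Svep1 were carried by none and Vegfc by 5. In the Notch list, Hes1 was carried by 74 wells, but Hey1, Hey2, Heyl and Dll4 by none. In the Wnt list, the targets Axin2, Apcdd1, Notum and Lef1 were carried by none.

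Markers of other cells were looked for by list. Every listed marker of macrophages (10), T or NK cells (10), B cells (8), neutrophils (8), mast cells (7) and bone or cartilage (9) was carried by 0 members. At least 3 markers of 1 other class were carried by 2 members, 1 of them for fibroblasts and 1 for glia or neurons. No fibroblast marker was carried by 89 members. Dcn, a fibroblast proteoglycan, was carried by 25 members, and the summed fibroblast list ran from 0 to 6799 CPM in aged members and from 2.10 to 6736 CPM in young members. Itga2b, a platelet integrin, was carried by 8. The part of such cells in the results below was not tested. Without the 2 members and 2 of the other endothelial wells that carried at least 3 such markers, the counts of genes past the rule of size changed by less than 1.5 times. Wells with fewer such markers stayed in, among them most of the 25 members that carried Dcn.

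The rule's comparison set, deep wells with Pecam1 or Cdh5 at 100 CPM or more and Vwf under 100 CPM, held 9 wells, 0, 2, 3 and 4 by plate. On the young plates all 7 lay in plate columns 10 to 12, which held 34 deep young wells, 16 of them members. The wells of those columns were not compared alone, so the part of well position was not tested. A gene passed the rule of size where the higher set had at least 50 CPM in its pooled wells and 100 CPM or more in at least 20% of them, the pooled log2 ratio (pseudocount 1 CPM) was at least 1 in size, its sign was the same on every plate with 3 wells of each set, and no single well gave over 25% of the higher set's counts. This is a description, not a test. Of 4380 genes, 225 were higher in members (5.14%) and 4 lower (0.0913%), and 415 were higher without young S2, where only 1 plate was left to compare. Vwf was among the 225 by the rule's own choice. The limit of 25% from 1 well bears on 9 wells for a lower gene and on all members for a higher one, so the 2 counts cannot be set against each other. Over all 4380 genes, 2088 were above 0 and the median log2 ratio was -0.11. Lrg1 was also carried by 8 of the 9 wells. It pooled to 5526 CPM in members and 1403 CPM in these wells and passed, as did Nr2f2, Fabp4, Il6st, Bgn, Ptgs1 and Aqp1. Nr2f2 pooled to 483 and 168.9 CPM, but 1 young S2 well gave 79.3% of the latter's counts, and without it the 8 others pooled to 39.99 CPM. By the ratio on the plate where it was smallest, Bex3, Psmd7, Vdac2, Tmbim4, Cebpd, Cmip, Eloc, Chmp3, Tpst2 and Cygb were among the highest. In the 9 wells these genes pooled to low levels, from 1.14 CPM for Cebpd to 14.5 CPM for Psmd7. For Psmd7, 80.9% of those counts came from 1 well. The plates compared held only 3 and 4 of the 9 wells, and whether these genes were absent there or missed was not tested. The 4 lower genes were Actb (2643 CPM in members, 7966 in the 9 wells), Myct1 (291 and 596 CPM), Tcf4 (523 and 1445 CPM) and Sparc (1126 and 2783 CPM). Each was lower on both young plates, as the rule required. With the wells of the young plates alone, 0 genes passed as lower. Median-of-ratios scaling moved the share of higher genes among those past the rule, which this limit also shapes, from 98.3% to 76.5%.

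A broader set was chosen after the values were seen: 43 other endothelial wells with Pecam1 or Cdh5 at 100 CPM or more, Lyve1 and Cd74 under 100 CPM, and Vwf or Plvap under 1000 CPM, with 7, 12, 12 and 12 wells by plate. It shares 8 wells with the set of 9, so the comparisons are not independent. Of the 43, 15 were high in Vwf alone, 21 in Plvap alone and 7 in neither. Against them, 47 of 4391 genes were higher in members (1.07%) and 12 lower (0.273%), Vwf being among the 47 by the rule's own choice. With median-of-ratios scaling, which moved the median log2 ratio of all genes from -0.11 to -0.48, the numbers were 14 and 44. No gene named in this comparison changed sign under any alternative run. These genes had been chosen for the same sign on every plate, which made a change of sign unlikely from the start.

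Stab1 (chromosome 14, 31139013 to 31168641), a scavenger receptor of sinusoidal, lymphatic and some venous endothelium, had the largest ratio on the plate where its ratio was smallest. It was carried by 41 members and by 2 of 43 other endothelial wells, with 211 CPM (209 to 214) and 18.3 CPM (17.2 to 19.3) in the pools. In members it pooled to 290.3, 199, 198 and 197 CPM by plate, against 13.7, 11.3, 30.1 and 23 CPM in the other endothelial wells. Members of all 4 plates lay above the other endothelial wells of all 4 plates, although most single members had under 100 CPM of Stab1.

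Nrp2 (chromosome 1, 62703285 to 62818695) pooled to 582 CPM in members and 221 CPM in the other endothelial wells and was carried by 57 and 10 wells. Its level in members was 631, 470, 576 and 651 CPM by plate. Each exceeded the other endothelial wells of the same plate, as the rule of size required. Cytl1 pooled to 3702 and 1226 CPM and the matrix proteoglycan gene Bgn to 916 and 282 CPM. Hs3st1, which encodes a heparan sulfate sulfotransferase that makes the antithrombin binding site, pooled to 414 and 108.5 CPM. Cebpd, a transcription factor gene that overlaps Spidr, pooled to 141.1 and 24.8 CPM, and Kdelr2, a retrieval receptor of the endoplasmic reticulum, to 160.9 and 13.4 CPM. Cd63 was the only one of 13 tested genes of the Weibel-Palade list past the rule, at 384 and 185.02 CPM. Of all genes tested, 1.07% passed as higher. The other named higher genes were Sf3b5, Paip2, Mylip, Txndc9 and Prdx2, the last overlapping Junb and Rnaseh2a.

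The 12 genes lower in members included Igfbp5, Timp3, Hmcn1, Ifngr1 and Tuba1a. Igfbp5, an IGF binding protein, pooled to 514 CPM in members and 1537 CPM in other endothelial wells, and was carried by 44 members and 24 of 43 others. Timp3, an inhibitor of metalloproteinases, pooled to 60.4 and 308 CPM, Hmcn1, a large matrix protein gene, to 75.1 and 358 CPM, and Ifngr1, a chain of the interferon gamma receptor, to 79.9 and 241 CPM. Tuba1a pooled to 74.3 and 259 CPM. Thrap3, H2afj, Slfn5, Abcg1, Copa, Pabpc1 and Capns1 were the other lower genes. Over the 19 tested genes of the matrix list the median log2 ratio was -1.30, beside -0.11 over all genes tested. Of the 19, 1 passed as higher and 2 as lower, beside 1.07% and 0.273% of all genes tested.

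The remaining markers separated the sets less. Emcn pooled to 1832 and 1206 CPM and Nr2f2 to 483 and 267 CPM in members and other endothelial wells, but the sign of each ratio differed between plates. For Mgp the values were 7403 and 7263 CPM. Pecam1 was lower in members on every plate, 790 against 1305 CPM, without reaching the size asked; having Pecam1 or Cdh5 was a condition of entry for the other wells only. Aplnr was carried by 2 of the 43. Lrg1 was carried by 41 of the 43 and did not pass the rule of size against them.

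**Figure D4:**
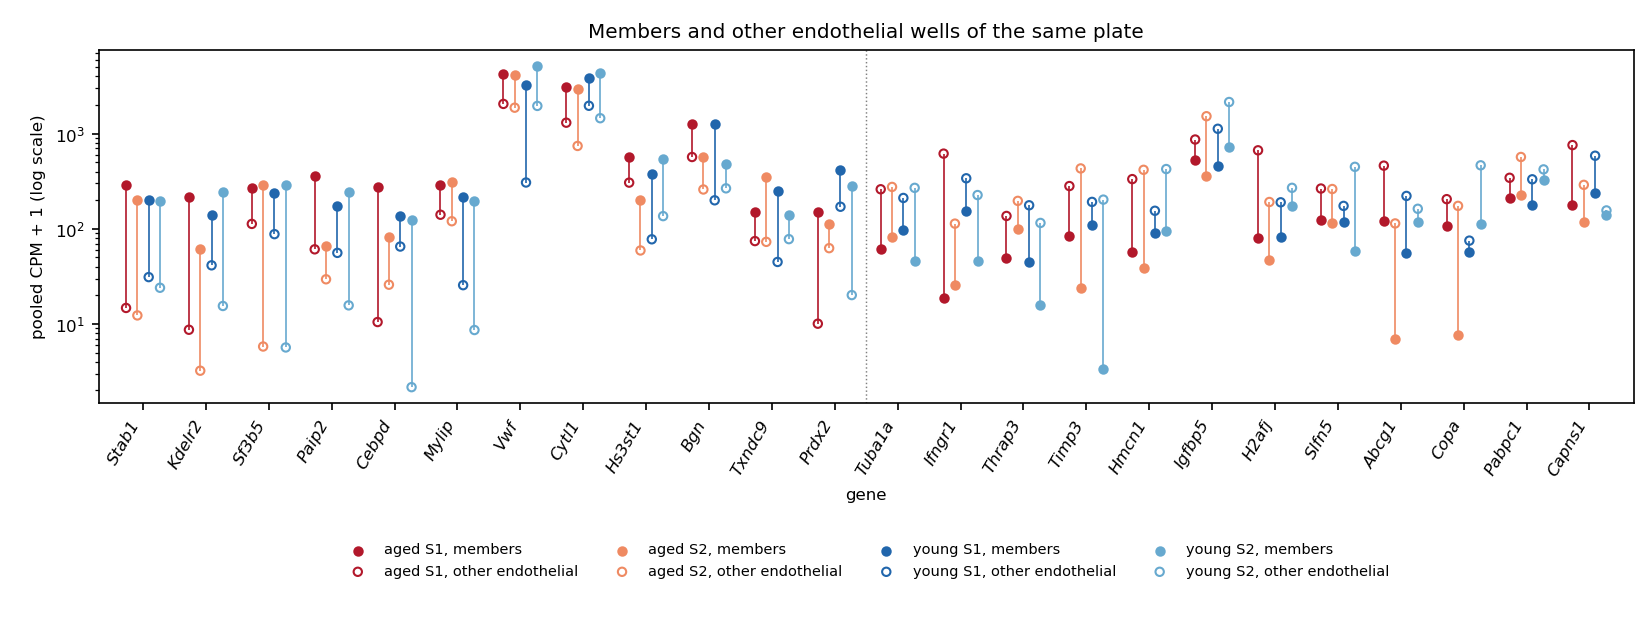
Pooled CPM plus 1, on a log axis, of the 12 higher (left) and 12 lower (right) genes with the largest smallest log2 ratio over plates. Filled points are members and open points other endothelial wells of the same plate, joined by a line; Stab1 has the widest gap that holds on all 4 plates.

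The 51 wells that met both the Vwf and Plvap limits but had Lyve1 or Cd74 at 100 CPM or more were set aside by the rule. They numbered 31, 2, 16 and 2 by plate. Lyve1 was carried by 29, Cd74 by 29 and both by 7. Stab1 was carried by 18 of the 51 and Nrp2 by 29, and Emcn and Lrg1 by all. Prox1 and Pdpn were carried by 0 here too, as in members. Igfbp5 pooled to 1712 CPM, above the 514 CPM of members, and Ifngr1 to 325 against 79.9 CPM.

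Members were a smaller share of deep wells in the aged pool. The 42 aged members were 33.6% of aged deep wells (exact 95% interval 25.4 to 42.6) and the 79 young members 54.9% of young deep wells (46.4 to 63.2). Within S1 it was 34.7% aged and 59.8% young, and within S2 32% and 47.4%. Before the Lyve1 and Cd74 limits the gap was smaller: 60% of aged deep wells (50.9 to 68.7) and 67.4% of young deep wells (59.1 to 74.9) had at least 1000 CPM of both genes. Within S1 these shares were 76% and 78.2%, and within S2 36% and 50.9%. The Cd74 limit met 25 aged and 4 young wells, and 23 of the 25 lay on aged S1. Of these, 20 aged and 2 young wells were under the Lyve1 limit and so were left out for Cd74 alone. Asking 2000 CPM of Vwf and Plvap gave 18.4% and 38.2%.

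Aged and young members were then compared, asking the same sign for each aged plate over each young plate, 4 ratios in all. Of 4359 genes, 34 were higher in aged members (0.78%) and 92 lower (2.11%). These numbers depended on the plates. Without aged S1 they were 16 and 286, without young S1 73 and 69, and without young S2 61 and 190. Without aged S2, 64 were higher. Of the 34 higher genes, 3 were also past the rule without aged S1 and 11 without aged S2.

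Vcam1 (chromosome 3, 116109949 to 116129688), which binds leukocyte integrins, pooled to 435 CPM in aged and 173.04 CPM in young members, carried by 18 of 42 and 16 of 79 wells. By plate it stood at 338, 506, 118.05 and 258 CPM, with both aged plates above both young plates, as the rule of size required. Of the 14 tested venous genes, Vcam1 and Tmem252 passed as higher, at 262 against 108.8 CPM for the latter, and none as lower. Over all genes tested, 0.78% passed as higher and 2.11% as lower. The median log2 ratio of the list was 0.86, beside 0.09 over all genes tested. Selp, at 226 and 113.9 CPM, was higher in all 4 ratios with 1 well giving 31.05% of the aged counts, and did not pass. Emcn (1808 and 1845 CPM), Lrg1 (5758 and 5402 CPM) and Nrp2 (538 and 606 CPM) differed little between the ages.

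In the BMP and TGF-beta list, the receptor gene Tgfbr2 (324 and 107.8 CPM in aged and young members) and the inhibitory Smad7 (146.2 and 60.2 CPM) passed as higher. They were 2 of 14 tested, with none lower and a median log2 ratio of 0.65. Over all genes tested, 0.78% passed as higher and the median was 0.09. In all 4 ratios 6 of the 14 were higher, beside 18.3% of all genes tested. Wells that carried Tgfbr2 numbered 11 aged and 12 young, and for Smad7 9 and 6. Id1 was carried by 32 of 42 aged and 35 of 79 young members, at 1387 and 787 CPM, which missed the size asked. The genes with the largest smallest ratio were Lima1, an actin binding protein gene (485 and 139.3 CPM), Csnk2a1 (140.4 and 38 CPM), the kinase gene Pim3 (253 and 64.2 CPM), Gripap1 (308 and 36.2 CPM), Pura (332 and 81.1 CPM), Myh9, a non-muscle myosin (349 and 146.9 CPM), Fcho2 (367 and 62.7 CPM) and Atrx (344 and 160.9 CPM). Lima1 was carried by 18 of 42 aged and 15 of 79 young members.

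The genes lower in aged members included Cd36 and Aqp1. Cd36, a fatty acid translocase (chromosome 5, 17781690 to 17888801), pooled to 8.09 CPM in aged and 134.7 CPM in young members and was carried by 1 of 42 and 17 of 79. By plate it stood at 17.99, 0.860, 127.4 and 145.9 CPM. Aqp1, the water channel gene, pooled to 285 and 580 CPM and was carried by 11 and 36 wells. These were the 2 of 8 tested peripheral capillary genes past the rule, and the list's median log2 ratio was -0.70. Over all genes tested, 2.11% passed as lower and the median was 0.09. In all 4 ratios 4 of the 8 were lower and 1 was higher. Of all 4359 genes tested, 745 were lower and 797 higher in all 4. Fabp4, at 1787 and 2991 CPM, was lower in all 4 ratios and missed the size. Meox2, a homeobox gene of the same list, was carried by 0 of 42 aged and 15 of 79 young members (2.13 and 126.2 CPM), just under the 20% of wells asked. Sparc, a matrix protein, pooled to 620 and 1395 CPM.

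The other named lower genes were Gorasp2 (2.49 CPM aged, 127.1 CPM young) and Surf4 (16.3 and 128.96 CPM), of the Golgi and its traffic, Mrpl14 (9.68 and 239 CPM) and Ndufs6 (103.1 and 416 CPM), of mitochondria, and Tmem160, Capn2 and Fam69a. Several of these overlap another gene, Fam69a with Rpl5, Ndufs6 with Mrpl36, Mrpl14 with Tmem63b and Surf4 with Surf2, so their counts are uncertain. Most were carried by few wells, Gorasp2 by 1 aged and 16 young members.

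No interferon gene passed the rule of size, although the list leaned one way. Of 11 tested genes of the type I interferon list, 8 (72.7%) were higher in aged members in all 4 ratios, beside 18.3% of all genes tested, and the median log2 ratio was 2.01, but few wells gave these counts. Rtp4 pooled to 204 and 38.8 CPM, carried by 10 aged and 6 young members, with 29.5% of the aged counts in 1 well, and Ifit1 had 97.3% of its aged counts in 1 well. At least 3 genes of the list were carried by 13 of 26, 3 of 16, 5 of 52 and 3 of 27 members by plate. The share was highest on aged S1, at 50%, and 18.8%, 9.62% and 11.1% on the other plates. B2m, the light chain of MHC class I, was higher in all 4 ratios, at 9448 and 8941 CPM on the aged plates and 4974 and 5837 CPM on the young ones, short of the size asked. Of 14 tested MHC class I genes, none passed and the median log2 ratio was 0.80, beside 0.09 over all genes tested. In all 4 ratios 5 of the 14 (35.7%) were higher. H2-D1 pooled to 3025 and 3000 CPM; class I genes include near-identical copies, whose reads the counting may split. The Cd74 limit, which alone removed 20 aged and 2 young wells, acted on an interferon-responsive gene, and its part in these values was not tested.

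**Figure D5:**
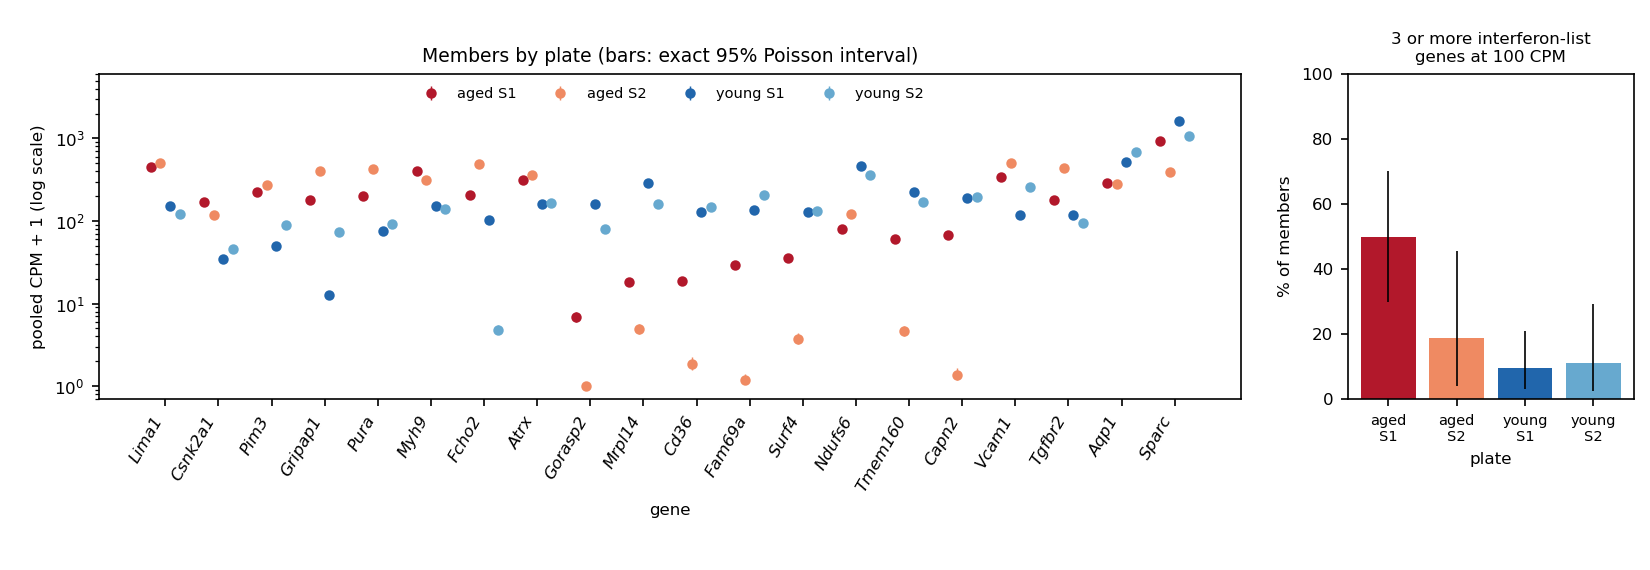
Left, pooled CPM plus 1 in members of each plate, on a log axis with exact 95% Poisson intervals, for the 16 genes with the largest smallest ratio between ages and 4 list genes; the aged plates (red, orange) lie above the young (dark and light blue) for Lima1 to Atrx and below them for Gorasp2 to Capn2. Right, the share of members with at least 3 genes of the interferon list at 100 CPM, with exact 95% intervals, from 50% on aged S1 to 9.62% on young S1.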

How the data were processed

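The deposited tables hold whole-number counts of reads for each gene and well, which the authors made on mm10 with the tools STAR (2.5.1a), Subread and featureCounts (1.4.6-p5), per the submitters' processing notes. How strand and multiply mapped reads were handled, and the annotation release, is not given in the sources used here. The oligo-dT primer carried a well barcode, per the labels' protocols, and S1 and S2 were sequenced in separate runs. Every column of values matched 1 labelled well.

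Wells were scaled to CPM by their own total, and sets of wells pooled by summing counts. Pools have exact Poisson and shares exact Clopper-Pearson 95% intervals. Named genes were the 12 higher and 12 lower past the rule of size (8 and 8 for age) with the largest smallest ratio over plates, plus the label's markers, sort genes and genes of the lists. Members, lists and rules were chosen with earlier results of these data known. Symbols were matched to GENCODE vM21 (GRCm38, the assembly of mm10) for 40160 of 40324 genes. The rule was tested on simulated data that held no differences between plates. That run cannot show how the rule behaves with plate differences such as those above. Alternatives changed scaling, filters, thresholds, wells and plates. Python 3.11.15, numpy 2.4.6, pandas 2.3.3, scipy 1.17.1 and matplotlib 3.10.9 were used. Some genes of the lists are counted in list totals but not reported here by name.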

Additional observations from a re-analysis of the deposited data

Results flagged for a closer look

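Wells left out for low depth carried the signal that defines members. Of the wells under 300000 counts, 93 had at least 1000 CPM of both Vwf and Plvap, and 40 of them also had Lyve1 and Cd74 under 100 CPM. By plate, the 40 numbered 1 and 15 in the aged pool and 6 and 18 in the young pool, with a median of 64972 counts (21228 to 260321). They entered no comparison, and no well is labelled as empty, so there is no control level to set beside them.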

How the results depend on the processing

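The set of 43 other endothelial wells, the young plates alone and the removal of members within the range of shallow wells were chosen after seeing the data. Against the 9 wells, genes past the rule of size, as a percentage of all 40324 genes, were 0.558% higher and 0.00992% lower. They were 0.193% and 0.0595% with median-of-ratios scaling, 0.285% and 0.00248% with a log2 ratio of at least 1 on every plate, 2.74% higher with no filter on low values, 0% lower on the young plates alone, and 0.558% to 1.03% higher and 0% to 0.00744% lower without 1 plate. Against the 43 wells the numbers were 14 and 44 with median-of-ratios scaling, 7 and 2 with a log2 ratio of at least 1 on every plate, 244 higher without filters, and 73 to 100 higher and 12 to 29 lower without 1 plate. Between ages (as reported, 34 and 92) they were 53 and 327 without filters, 7 and 19 with every one of the 4 log2 ratios at least 1, 11 higher with Vwf and Plvap at 2000 CPM, and 16 to 73 higher and 69 to 286 lower without 1 plate. Shares of members were 18.4% aged and 38.2% young at 2000 CPM, 32% to 34.7% aged and 47.4% to 59.8% young without 1 plate. Fewer plates ask fewer signs to match; the cause of the other changes was not tested. The remaining 75 counts and shares stayed within 1.5 times or the interval, among them those without the members within the range of shallow wells. A count within this limit can hold different genes. Between ages, each well thinned to 300000 counts gave 41 higher and 78 lower genes. Of these, 18 and 51 were among the 34 and 92 reported. The mean of the wells' CPM gave 39 and 75, with 18 and 52 shared. Median-of-ratios scaling gave 37 and 83, with 34 and 77 shared. Against the 43 wells, thinning kept 25 of the 47 higher and 10 of the 12 lower genes. Of 1234 ratios of named genes under alternatives, 1120 moved by less than the SD over plates (between ages, over the 4 ratios) and 0 changed sign. Alternatives that changed only the floor, the filters or the size asked of each plate leave a pooled ratio as it is. So do the ratios within S1 and within S2 described below. Part of the 1120 were thus the same by construction. The named genes had been chosen for the same sign in every ratio compared, so a change of sign was unlikely from the start. Asking both Pecam1 and Cdh5 of the 9 wells left no plate with 3 and gave no value. Ratios were also taken only within S1 and within S2, with the plate number as a replicate block (also chosen after seeing the data). Then 40 genes were higher in aged members, 25.3% of those past the rule. These 2 ratios are among the 4 used before, so the 34 higher and 92 lower genes had to pass again. Each age is 1 pool, so no paired test was made.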

Other observations

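Genes of the immediate early and dissociation list, which tissue digestion is known to induce, were uneven among members. At least 3 of the 20 were carried by 78 members and up to 12 by a single well. Jun was carried by 64 members, Dusp1 by 51 and Junb by 46, whereas Fos and the heat shock gene Hspa1a were each carried by 19. The share of members with at least 3 was 59.5% in the aged pool (exact 95% interval 43.3 to 74.4) and 67.1% in the young pool (55.6 to 77.3). By plate it was 73.1% and 37.5% in the aged pool and 80.8% and 40.7% in the young pool, higher on S1 than on S2 at both ages. This was not particular to the list. With the caveolar list the shares were 88.5%, 31.3%, 96.2% and 59.3% by plate, and with the tight junction list 53.8%, 6.25%, 34.6% and 11.1%. The Notch list gave 3.85%, 0%, 3.85% and 11.1%. Members of the 4 plates had medians of 5533, 5270, 5808 and 5077 detected genes. The cause of the plate difference was not tested. Ier3 was the only one of 17 tested genes past the rule of size between ages, at 389 CPM in aged and 176.005 CPM in young members. Of all genes tested, 0.78% passed as higher in aged members.

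Junction genes were carried unevenly. Of the tight junction list, Esam was carried by 81 members and Jam2 by 49, while Tjp1 was carried by 15, Ocln by 9 and Cldn12, Tjp3 and Cgn by none. Of the chemokines listed, Ccl2, Ccl5, Ccl7, Cxcl1 and Cxcl9 were carried by no member and Cxcl10 by 1. Cell cycle genes were carried by few members, with 10 of 15 carried by none. Whether a gene carried by few wells is absent from the rest or was missed there cannot be told at these depths.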
